A study of Mus musculus with 3 samples.

Results

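Genes of cholesterol and fatty acid synthesis were examined in polyA RNA-seq of mouse regulatory T cells that the labels describe as having experienced inflammation. The set holds 34 genes of 55536 annotated, picked by their GENCODE M21 gene name in the deposited gene tables, and all 34 were found. That rule used names alone, although the members were chosen with earlier results of these data known. It covers 18 enzymes of the cholesterol pathway, 5 genes for the SREBP transcription factors and the proteins that hold or escort them, 6 genes of sterol storage and transport, and 5 enzymes of fatty acid synthesis. The cells came from 1 adult male mouse of 16 weeks of the strain Foxp3GFP-DTRCD4CreERT2R26tdTomato, whose name combines GFP with a receptor for diphtheria toxin at Foxp3, a tamoxifen-inducible Cre under Cd4 and a Cre-dependent red reporter. Cells are labelled as primary and as originating from the whole organism. The sources used here do not say how inflammation was induced or how the cells were sorted. The 3 libraries are technical replicates of 1 biological replicate, so they form 1 group, there is no contrast between conditions, and every SD or p-value below measures only the spread between libraries.

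Cells make cholesterol from acetyl-CoA, first through the mevalonate steps to farnesyl diphosphate and then through squalene and lanosterol to the sterol ring. Transcription of these enzymes is driven by SREBP proteins, which are held in the endoplasmic reticulum by a complex with Scap and the Insig proteins when sterols are plentiful and are released to the Golgi and cleaved when sterols are scarce. Srebf2 encodes SREBP-2, known mainly for the sterol enzymes, and Srebf1 encodes SREBP-1, known mainly for fatty acid synthesis. In regulatory T cells the mevalonate pathway is known to be needed for suppressive function.

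SREBP proteins are known to bind sterol regulatory elements, often beside a CCAAT box bound by NF-Y and a GC box bound by Sp1. RefSeq promoter windows, which run from 250 bases before to 50 bases after a gene's start on GRCm38.p6, were matched for 26 of the 34 genes, with 34 windows in all because some genes have several starts. Searched on either strand, the sterol regulatory element core TCACNCCA was present in 3 of the 34 windows (8.8%), against 4.36% of all 32851 promoter windows of the same length. These 3 are shown because they are the windows in which that core was found, those of Srebf2, Msmo1 and Hmgcs1. They are written 5′ to 3′ on the gene's strand, with the core and every CCAAT box, in either orientation, in capitals. The windows lie at chr15:82147019-82147318 on the plus strand for Srebf2, chr8:64733529-64733828 on the minus strand for Msmo1 and chr13:119690101-119690400 on the plus strand for Hmgcs1.
Srebf2: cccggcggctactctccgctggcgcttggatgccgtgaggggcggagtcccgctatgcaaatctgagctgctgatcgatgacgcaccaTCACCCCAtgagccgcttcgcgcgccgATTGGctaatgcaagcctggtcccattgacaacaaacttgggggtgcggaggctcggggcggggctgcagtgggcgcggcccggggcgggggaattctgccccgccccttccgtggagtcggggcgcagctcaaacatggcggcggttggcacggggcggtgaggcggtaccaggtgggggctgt
Msmo1: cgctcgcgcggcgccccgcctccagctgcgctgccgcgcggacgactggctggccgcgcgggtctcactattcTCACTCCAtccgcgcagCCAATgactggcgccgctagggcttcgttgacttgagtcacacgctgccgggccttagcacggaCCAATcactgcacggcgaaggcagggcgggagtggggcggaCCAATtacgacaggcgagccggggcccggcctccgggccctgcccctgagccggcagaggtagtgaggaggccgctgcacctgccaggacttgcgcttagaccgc
Hmgcs1: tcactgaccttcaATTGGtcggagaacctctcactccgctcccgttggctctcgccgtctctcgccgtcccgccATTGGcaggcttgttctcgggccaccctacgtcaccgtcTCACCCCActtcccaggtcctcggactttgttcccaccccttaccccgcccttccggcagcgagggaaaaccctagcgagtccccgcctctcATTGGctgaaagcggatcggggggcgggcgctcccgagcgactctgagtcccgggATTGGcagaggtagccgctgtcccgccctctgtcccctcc

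The core began at position -162 from the start in Srebf2, -177 in Msmo1 and -137 in Hmgcs1, and in each of these windows a CCAAT box lay nearby without overlapping it. CCAAT boxes were found in 67.6% of the windows of the set (22 of 26 genes), against 37.41% of all windows. The GC box GGGCGG was present in 79.4% (23 of 26 genes), against 35.66% of all windows. The E-box CACGTG, which reads the same on both strands, was present in 20.6% (Abca1, Dhcr7, Hsd17b7, Insig1, Sc5d and Scap), against 7.15%. These matches describe letters in the window and are not binding sites.

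Every gene of the set was expressed. All 34 reached at least 1 TPM, the deposited level scaled for transcript length and depth, in each library, as did 10436 of 22028 protein-coding genes. The median over the 34 genes was 34.5 ± 0.649 TPM (SD over libraries, n = 3), and 20 of the 34 lay above 25.9 TPM, the median of the protein-coding genes so detected. Means over libraries ran from 1.87 TPM for Scd1 to 170 TPM for Acly, and 3 genes (Acly, Srebf2 and Ebp) exceeded 100 TPM. Adipocytes and hepatocytes, the classic lipid-making cells, left almost no trace: 4 adipocyte markers summed to between 0.94 and 1.37 TPM with Cidec at 0, and 3 hepatocyte markers to at most 0.04 TPM with Ttr at 0. As bulk RNA, these data cannot tell apart fewer cells of a type and less RNA per cell.

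**Figure D1:**
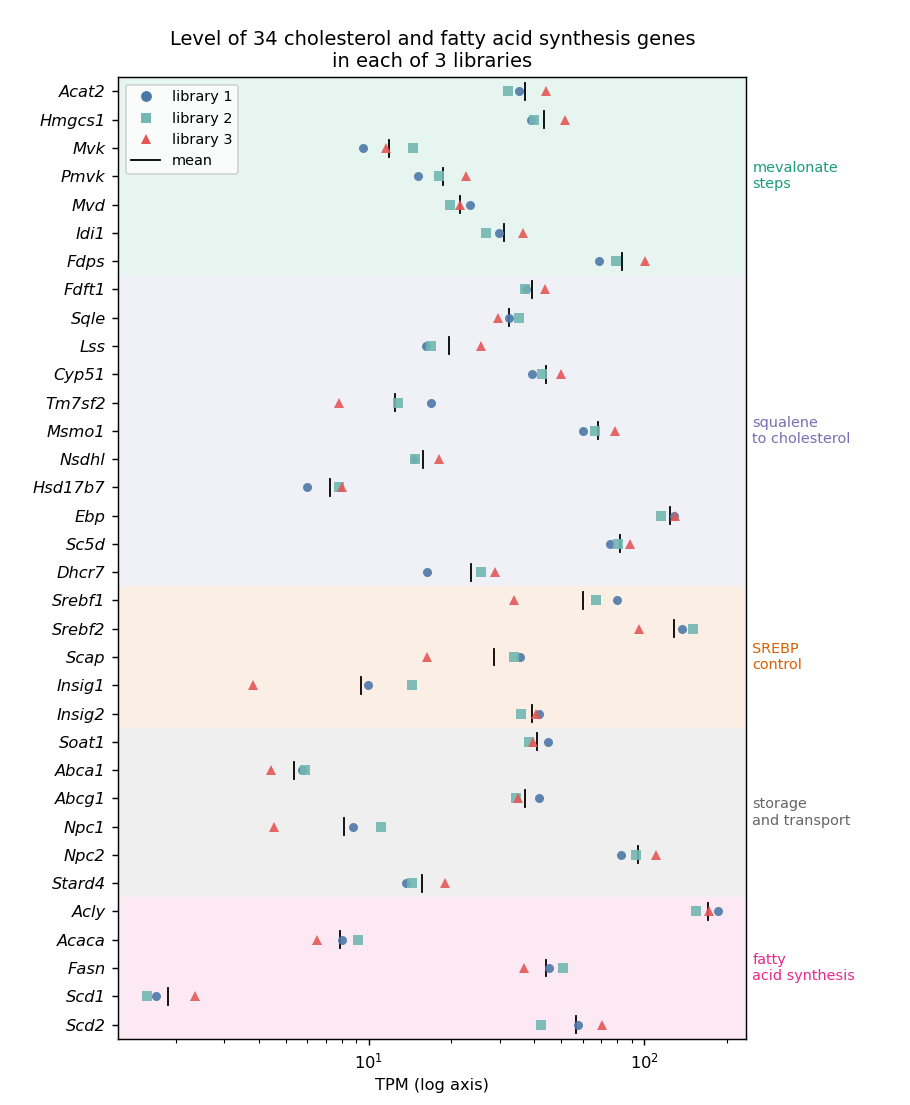
Level of each of the 34 genes in TPM (log axis) in library 1 (circles), library 2 (squares) and library 3 (triangles), with the mean as a black tick, grouped by role. Acly is the highest at a mean of 170 TPM and Scd1 the lowest at 1.87 TPM; the triangles lie to the right for most sterol enzymes and to the left for Srebf1, Scap and Insig1.

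The libraries held 17494966 to 20942875 expected counts on annotated genes, and the lowest mean count of a member was 74.7. T cell markers (all 5 detected) summed to 6566, 6379 and 7344 TPM in libraries 1, 2 and 3. Regulatory T cell markers (all 5 detected, Foxp3 among them) summed to 1754, 1465 and 1422 TPM. Macrophage markers (6 of 6 detected) summed to 59.0, 61.5 and 49.4 TPM in libraries 1, 2 and 3, B cell markers (3 of 5 detected) to 22.2, 29.3 and 34.8 TPM, erythroid markers (3 of 5 detected) to 811, 616 and 1020 TPM, dendritic cell markers to at most 2.75 TPM, and granulocyte markers to 2.69 TPM in library 2 and 0 in the others. Whether each gene's counts differed between the libraries by more than Poisson sampling was tested by a chi-square test over the whole table. Each adjusted p below belongs to this test of all 3 libraries unless a pair of libraries is named, and a direction given for library 3 is the sign of its deviation. Of 14877 genes tested, 63.9% differed at an adjusted p under 0.05, with 29.7% higher and 34.1% lower in library 3 than in the mean of libraries 1 and 2. Library 3 stood apart: the SD over genes of its log2 deviation from the other libraries was 0.63, against 0.36 for library 1 and 0.31 for library 2 (for genes whose mean count reached 100). Over 9305 protein-coding genes the deviation of library 3 had a Spearman rho of -0.54 with local GC content, the GC percent of the most GC-rich 200-base window of a gene's leading transcript, and over the 34 members rho was also -0.54; these genes share their libraries, and no test was made.

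The test called 31 of the 34 members different between libraries, against 63.9% of all tested genes. Of these, 18 had a positive and 13 a negative deviation of library 3, beside 29.7% and 34.1% of all tested genes. In 5 of them, Mvk, Soat1, Abcg1, Acly and Acaca, that deviation lay within 2 counting SE of 0, which leaves 17 above and 9 below. The share of genes called moves with depth, since 74.9% were called where the mean count reached 50. Without library 3, 17 of 34 members were called, 11 of them higher in library 2 and 6 higher in library 1, against 30.19% of all genes tested at that setting (13.71% higher in library 2 and 16.48% higher in library 1). The median over members of the log2 deviation was -0.08 for library 1, -0.08 for library 2 and 0.17 for library 3, against 0.01, 0.03 and 0.01 over all tested genes. By scaled count, library 3 was the highest of the libraries for 19 of the 34 members and the lowest for 9, against 39.97% and 39.47% of all tested genes. T cell, B cell and erythroid marker sums were also highest in library 3, while the regulatory T cell sum was lowest there. The T cell and erythroid sums were lowest in library 2, an order of libraries shared in TPM by Acat2, Idi1, Fdft1, Ebp, Scd1 and Scd2. The B cell sum was lowest in library 1. That order was shared in TPM by Hmgcs1, Pmvk, Fdps, Lss, Cyp51, Msmo1, Nsdhl, Hsd17b7, Sc5d, Dhcr7, Npc2 and Stard4. The part of B cell and erythroid RNA in these results was not tested.

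**Figure D2:**
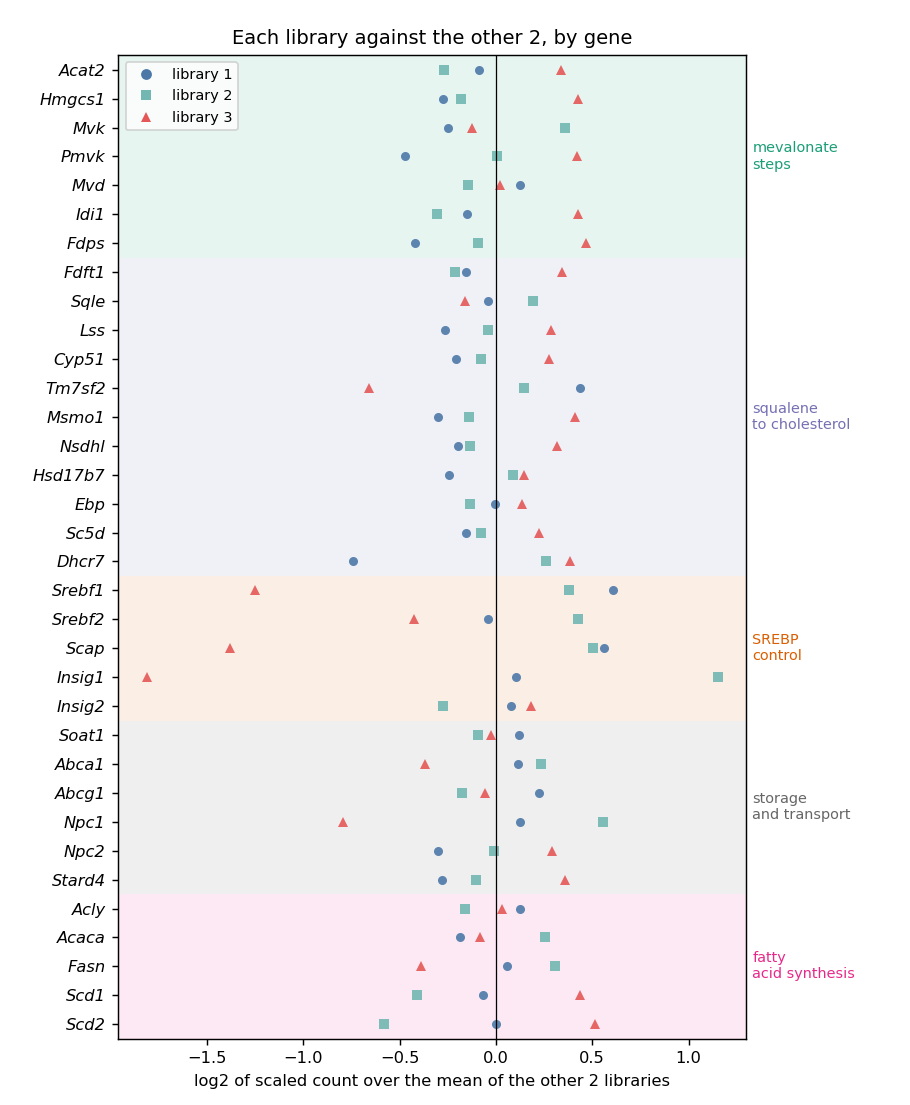
Log2 of each library's scaled count over the mean of the other libraries, for the 34 genes by role, with circles, squares and triangles for libraries 1, 2 and 3. Of the 18 sterol enzymes, 13 were called with their triangle to the right of 0 (11 with the local GC trend removed), beside 29.7% of all tested genes. Srebf1, Scap and Insig1 have theirs at -1.25, -1.38 and -1.81.

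The mevalonate steps were expressed at a median of 31.0 ± 5.03 TPM (SD over libraries). Of the 7 genes, 5 were called and higher in library 3, beside 29.7% of all tested genes. Hmgcs1, which joins acetoacetyl-CoA and acetyl-CoA to HMG-CoA, stood at 38.8, 39.7 and 51.5 TPM in libraries 1, 2 and 3. Library 3 was above both others, and its scaled count was 1.34-fold the mean of the others (log2 0.42, counting SE 0.043, adjusted p = 3.46e-22 by the chi-square test). Fdps, which makes farnesyl diphosphate, the branch point to sterols and to protein prenylation, was the highest of these steps at 68.7, 79.0 and 100.6 TPM. It was 1.38-fold higher in library 3 (adjusted p = 2.39e-24), and libraries 1 and 2 also differed from each other (log2 0.23, adjusted p = 9.15e-04). Idi1, the isomerase of the isopentenyl unit, stood at 29.8, 26.6 and 36.5 TPM and Acat2, the cytosolic thiolase that makes acetoacetyl-CoA, at 35.1, 32.1 and 44.0 TPM. Both were highest in library 3, by 1.34-fold and 1.26-fold of the scaled counts.

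The kinases and the decarboxylase between HMG-CoA and the isoprenoids were expressed at lower levels than the steps above. Pmvk, phosphomevalonate kinase, stood at 15.1, 18.1 and 22.6 TPM and was 1.34-fold higher in library 3 (adjusted p = 5.14e-05), a call lost without library 1, at log2 0.26. Mvk, mevalonate kinase, had its highest level in library 2, at 9.55, 14.5 and 11.6 TPM (adjusted p = 0.018). Libraries 1 and 2 differed by log2 0.40 (adjusted p = 0.0182), while the deviation of library 3 was -0.13 with a counting SE of 0.13. The call was lost without library 1 and in the M4 counts, and the deviation was 0.09 without library 2. Mvd, the diphosphomevalonate decarboxylase, gave 23.3, 19.7 and 21.4 TPM and did not pass the test (adjusted p = 0.215).

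Among the 11 enzymes from squalene to cholesterol, with a median of 32.3 ± 2.81 TPM, 8 were higher and 2 lower in library 3, and Hsd17b7 did not pass the test. Beside this, 29.7% of all tested genes were higher and 34.1% lower. With the local GC trend removed, 6 of these enzymes were called higher and 2 lower, though for Sqle the deviation was then only log2 -0.012. Ebp, the sterol delta8-delta7 isomerase, was the most abundant by gene TPM, at 127.8, 115.0 and 129.5 TPM. Its libraries lay close together, and its call (adjusted p = 0.015) was lost without library 2 and with the local GC trend removed. On average the retained-intron model Ebp-202 held 46.35% of its TPM, the 526-base Ebp-203 41.74% and the full coding transcript Ebp-201 only 11.51%. Sc5d, the lathosterol desaturase, followed at 75.3, 80.5 and 88.9 TPM and Msmo1, the C4-methyl oxidase, at 60.2, 66.1 and 78.2 TPM. For both, library 3 was the highest, by 1.17-fold and 1.33-fold of the scaled counts.

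Fdft1, squalene synthase and the first step committed to sterols, stood at 37.3, 36.8 and 43.5 TPM and was 1.27-fold higher in library 3 (adjusted p = 9.94e-09). Cyp51, the lanosterol demethylase, gave 39.3, 42.5 and 50.1 TPM and Lss, which closes the ring to lanosterol, 16.2, 16.8 and 25.6 TPM. Library 3 was above both others for each, by 1.21-fold and 1.22-fold of the scaled counts. Nsdhl, a dehydrogenase of C4 demethylation, gave 14.7, 14.7 and 18.02 TPM, with an adjusted p of 0.00175 that became 0.124 with the local GC trend removed. Hsd17b7, the ketoreductase of the same step, was the lowest of these enzymes at 5.98, 7.83 and 7.99 TPM (adjusted p = 0.0795).

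Dhcr7, Sqle and Tm7sf2 had other patterns. Dhcr7, which reduces 7-dehydrocholesterol to cholesterol, had its low value in library 1, at 16.3, 25.5 and 28.9 TPM. Libraries 2 and 1 differed by log2 0.70 (adjusted p = 7.14e-16), and without library 1 libraries 2 and 3 were no longer called apart, at log2 0.07. Sqle, the squalene epoxidase, gave 32.4, 35.1 and 29.5 TPM and was lowest in library 3 (log2 -0.16, adjusted p = 0.00155). That call was lost without library 2, at -0.08, and in the GENCODE M4 counts. With the local GC trend removed the log2 of Sqle was -0.012, with a counting SE of 0.055. Tm7sf2, one of the sterol C14 reductases, gave 16.9, 12.7 and 7.84 TPM, so that library 3 was below both others (0.633-fold, adjusted p = 5.58e-06). It shares 12.1% of its exon bases with Vps51 on the same strand, so its counts are uncertain.

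The genes that control SREBP processing went the other way. Of 5, 4 were lower in library 3 (3 with the local GC trend removed) and Insig2 was higher, beside 34.1% and 29.7% of all tested genes. The median log2 of library 3 over these 5 was -1.25. Insig1, which retains the SREBP-Scap complex and is itself a sterol-responsive target, stood at 9.98, 14.4 and 3.82 TPM in libraries 1, 2 and 3. Library 3 lay below both others, whose mean scaled count was 3.51-fold higher (adjusted p = 9.18e-43). Scap, the sterol-sensing escort of SREBP, gave 35.5, 33.8 and 16.3 TPM, and the other libraries were 2.61-fold higher than library 3 (adjusted p = 7.88e-106). Srebf1 (chr11:60199089-60222581, minus strand) gave 79.6, 66.9 and 33.8 TPM, with the others 2.38-fold above library 3 (log2 -1.25, counting SE 0.051, adjusted p = 6.44e-144).

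Srebf2 (chr15:82147181-82205379, plus strand) was the second most abundant gene of the set. It gave 137.2, 150.9 and 96.0 TPM, with the others 1.34-fold above library 3 (log2 -0.43, adjusted p = 3.04e-92). Insig2, the second retention protein, gave 41.5, 35.6 and 40.6 TPM, and its log2 of library 3 over the others was 0.18 (adjusted p = 9.75e-05). That call was lost without library 2, at 0.07, and in the M4 counts, at 0.15. Its 3 values lay closer together than those of Insig1. Local GC content was high in all 5, at 71.0% for Srebf1, 72.5% for Scap, 73.0% for Insig2, 74.0% for Insig1 and 75.5% for Srebf2, against a median of 63.5% over all tested genes. With the local GC trend of each library removed, the log2 of library 3 was -0.64 for Srebf1, -0.59 for Scap and -0.93 for Insig1, still past the threshold, while Srebf2 changed sign to 0.44 and Insig2 moved to 1.03.

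**Figure D3:**
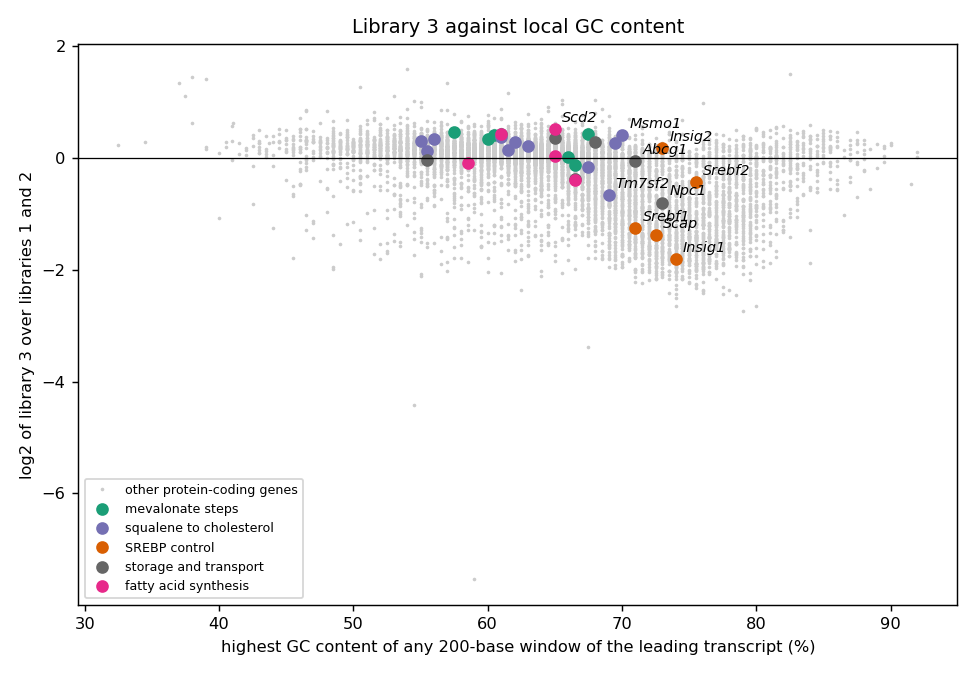
Log2 of library 3 over libraries 1 and 2 (vertical) against local GC content (horizontal, percent, most GC-rich 200-base window of the leading transcript), for the 34 genes by role (large points) and other protein-coding genes whose mean count reached 100 (grey). Insig1, Scap, Srebf1, Npc1 and Srebf2 lie below 0 at 71.0% GC or more, while Insig2 at 73.0% lies above 0 and Abcg1 at 71.0% near 0.

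Members higher in library 3 had a median local GC of 62.5% (range 55.0 to 73.0%) and members lower in it 69.0% (range 55.5 to 75.5%). With the trend removed, 29 members were called, against 58.65% of all tested genes. Library 3 deviated upwards in 19 of them and downwards in 10, beside 29.46% and 29.19% of all tested genes. Of the 18 first called with a positive deviation, 16 kept the sign and the call. Of the 13 first called with a negative one, 10 kept both, and Srebf2, Abcg1 and Npc1 turned positive. For Mvk, Sqle, Acly and Npc1 the deviation with the trend removed lay within 2 counting SE of 0. It was -0.07, -0.012, 0.019 and 0.042, with counting SE of 0.13, 0.055, 0.019 and 0.11.

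Sterol storage and transport genes were mixed, with a median of 26.3 ± 1.73 TPM, and all 6 genes were called, beside 63.9% of all tested genes. Npc2 and Stard4 were higher in library 3 and Npc1 and Abca1 lower, while Soat1 and Abcg1 differed mainly between libraries 1 and 2. Npc2, the soluble protein that binds cholesterol in lysosomes, was the highest at 82.4, 93.3 and 110.2 TPM. Npc1, the membrane protein that takes cholesterol over from it, was far lower at 8.76, 11.1 and 4.55 TPM. The pair diverged in library 3, where Npc2 was 1.23-fold higher than in the others (adjusted p = 4.58e-30) and Npc1 0.576-fold (adjusted p = 1.17e-12). With the local GC trend removed Npc1 stood at a log2 of 0.04, and its local GC was 73.0%.

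Stard4, a carrier that moves sterol between membranes, gave 13.7, 14.3 and 19.0 TPM and was 1.28-fold higher in library 3. Soat1, which esterifies cholesterol for storage, gave 44.7, 38.1 and 39.4 TPM, and Abcg1, a sterol exporter, 41.6, 34.3 and 34.7 TPM. For both, library 1 was the highest, and libraries 1 and 2 differed (log2 -0.14 and -0.27, adjusted p = 0.024 and 1.97e-06). Their log2 of library 3 over the others was -0.02 and -0.06 (counting SE 0.046 and 0.045), and 0.06 and 0.03 with total-count scaling. With the local GC trend removed it was 0.55 for Abcg1. The call of Soat1 (adjusted p = 0.0316) was lost with no filter on counts, without library 2 and in the M4 counts. Abca1, the exporter to lipid-poor apolipoprotein, was low at 5.74, 5.89 and 4.43 TPM and was 0.773-fold in library 3 (adjusted p = 3.45e-06). The summed macrophage markers were also lowest in library 3, mostly through Lyz2 (14.8, 15.0 and 7.45 TPM) and Csf1r (15.7, 14.9 and 12.03 TPM), while C1qa, Cd68 and Adgre1 were not lowest there. Their part in the Abca1 and Npc1 results was not tested.

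Fatty acid synthesis had the highest and the lowest gene of the set, with a median of 41.3 ± 4.35 TPM. Acly, which splits citrate into cytosolic acetyl-CoA for both pathways, stood at 184.7, 154.4 and 172.2 TPM and ranked at 926 among 22028 protein-coding genes. Its low value was in library 2, which differed from library 1 by log2 -0.19 (adjusted p = 1.20e-16). Acaca, the carboxylase that makes malonyl-CoA, was much lower at 8.04, 9.13 and 6.5 TPM. Fasn, the synthase itself, gave 45.0, 50.7 and 36.5 TPM and was lowest in library 3 (0.763-fold, adjusted p = 2.22e-45).

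Scd2, a stearoyl-CoA desaturase, gave 57.8, 42.3 and 70.2 TPM, so all 3 libraries were apart. It was 1.43-fold higher in library 3 and lower in library 2 than in library 1 (log2 -0.41, adjusted p = 3.91e-29). Scd1, its neighbour and close relative on chromosome 19, gave only 1.70, 1.57 and 2.34 TPM and did not pass the test (adjusted p = 0.0881). The authors' posterior SD of its estimated count was at most 3.22% of the count, the largest share of any member.

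Ratios between genes of related function were taken within each library as log2 of (TPM + 1), so that ratios involving low genes are understated. A pair was called different when all libraries had the same sign and the mean exceeded both 1 and 2 SD, and 9 of 13 pairs met this. Scd2 exceeded Scd1 by 4.31 ± 0.21 (SD), Acly exceeded Acaca by 4.28 ± 0.30, and Npc2 exceeded Npc1 by 3.46 ± 0.75. Within the paralogous controllers, Srebf2 exceeded Srebf1 by 0.78, 1.16 and 1.48 in libraries 1, 2 and 3, a mean of 1.14 ± 0.35. Without library 3 that mean was 0.97, under the limit. Insig1 lay below Insig2 by a mean log2 of -2.10 ± 0.94, with values of -1.95, -1.25 and -3.11, and the call was lost without library 1 and with counts scaled for depth alone, at -1.78 in M21 and -2.28 in M4.

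The ratios most constant in TPM joined genes whose levels both differed between libraries. Acaca over Fasn was -2.35, -2.35 and -2.32, a mean of -2.34 ± 0.016, and Msmo1 over Cyp51 was 0.62 ± 0.016, which is under the limit of 1. Scaled counts were less even within these pairs. Their log2 of library 3 over the others was -0.08 for Acaca (counting SE 0.085) and -0.39 for Fasn. It was 0.41 for Msmo1 and 0.275 for Cyp51. Abcg1 exceeded Abca1 by 2.58 ± 0.19 and Scap exceeded Insig1 by 1.58 ± 0.36. The first of these fell to 0.42, under the limit, in M4 counts, which ignore gene length. Fdps exceeded Fdft1 by 1.05 ± 0.17, a call that 4 of 8 alternatives kept. It was 0.97 without library 3, 0.98 with a pseudocount of 5, 0.36 with depth-scaled M21 counts and -0.50 with M4 counts. Hmgcs1 over Sqle (0.40 ± 0.33), Sqle over Lss (0.73 ± 0.46) and Soat1 over Abcg1 (0.14 ± 0.04) were not called. The ratio of Sqle to Lss moved from 0.96 and 1.02 in libraries 1 and 2 to 0.20 in library 3. By scaled counts, the log2 of library 3 over the others was -0.16 for Sqle and 0.285 for Lss. The short retained-intron model Lss-205 held 24.95, 19.67 and 35.41% of the TPM of Lss in libraries 1, 2 and 3.

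**Figure D4:**
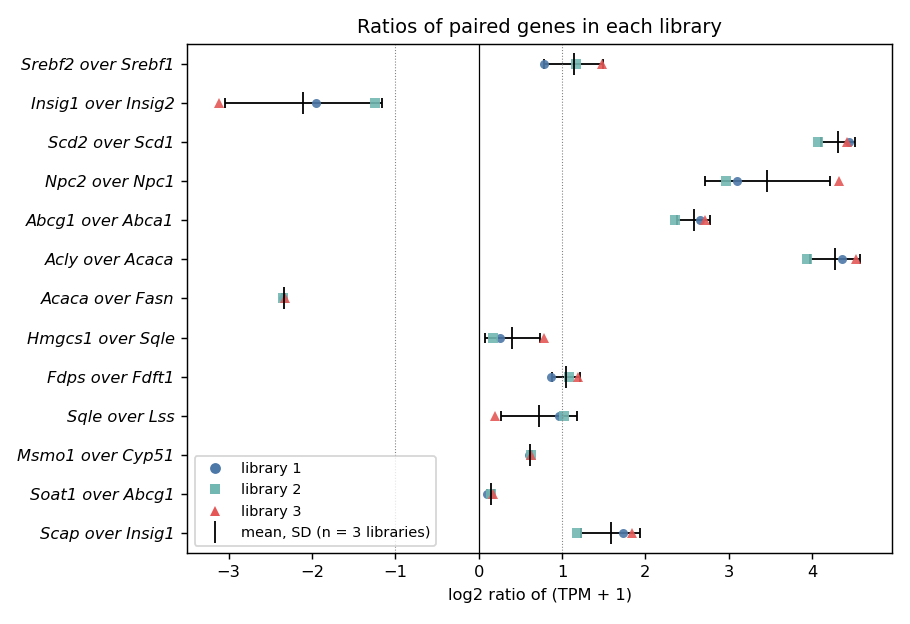
Log2 ratio of TPM + 1 for 13 pairs of genes in libraries 1 (circles), 2 (squares) and 3 (triangles), with the mean and SD over 3 libraries in black and dotted lines at -1 and 1. The ratio of Acaca to Fasn lies between -2.35 and -2.32 in all libraries, while Insig1 over Insig2 spreads from -1.25 to -3.11.

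Transcript tables assign 202 annotated transcripts to the 34 genes. The leading transcript held a median of 65.5 ± 2.44% of its gene's TPM, and 80.9% of its estimated reads. In 33 genes that transcript was annotated as protein coding. Ebp was the exception, where Ebp-202, a retained-intron model, held 45.1, 45.5 and 48.5% and the full coding transcript Ebp-201 with 690 coding bases held 11.1, 12.2 and 11.2%. Nsdhl-201, Abca1-201, Scd2-201, Idi1-201 and Sqle-201 each held over 90% on average. Another 8 genes had no transcript above 50% on average, namely Lss, Ebp, Srebf1, Srebf2, Npc1, Stard4, Acly and Acaca.

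Srebf1 has several starts. Srebf1-201, with 3402 coding bases and its start at position 60220604, held 46.5, 44.5 and 48.8% of the gene's TPM in libraries 1, 2 and 3. Srebf1-207, which starts further downstream at 60210465 and has 3066 coding bases, held 14.0 and 16.5% in libraries 1 and 2 and is listed at 0 in library 3, with 454, 413 and 0 estimated reads. Srebf1-204, a short model of 367 bases without a coding sequence, held 16.8, 20.7 and 31.3%. The estimated reads of Srebf1-201, not scaled for depth, were 2049, 1515 and 839, so the long coding transcript also had the fewest reads in library 3.

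For Srebf2 the share of Srebf2-201 (3390 coding bases) was 32.9, 48.1 and 53.0%, and that of Srebf2-203 (3288 coding bases) 29.1, 18.7 and 17.4%. Library 1 stood apart here, not library 3. The lead in Acly changed between libraries: Acly-207 (3273 coding bases) held 51.2, 48.1 and 37.0%, and Acly-203, with 3303 coding bases, held 44.3, 43.7 and 55.6%. In Npc2 the retained-intron model Npc2-203 held 6.28, 10.5 and 26.5%, and the coding Npc2-201 held most of the rest, at 91.3, 86.8 and 71.7%. The estimated reads of Npc2-201 were 3182, 3152 and 3073, and those of Npc2-203 were 168, 293 and 873. These reads are not scaled for depth, which fell from library 1 to library 3.

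**Figure D5:**
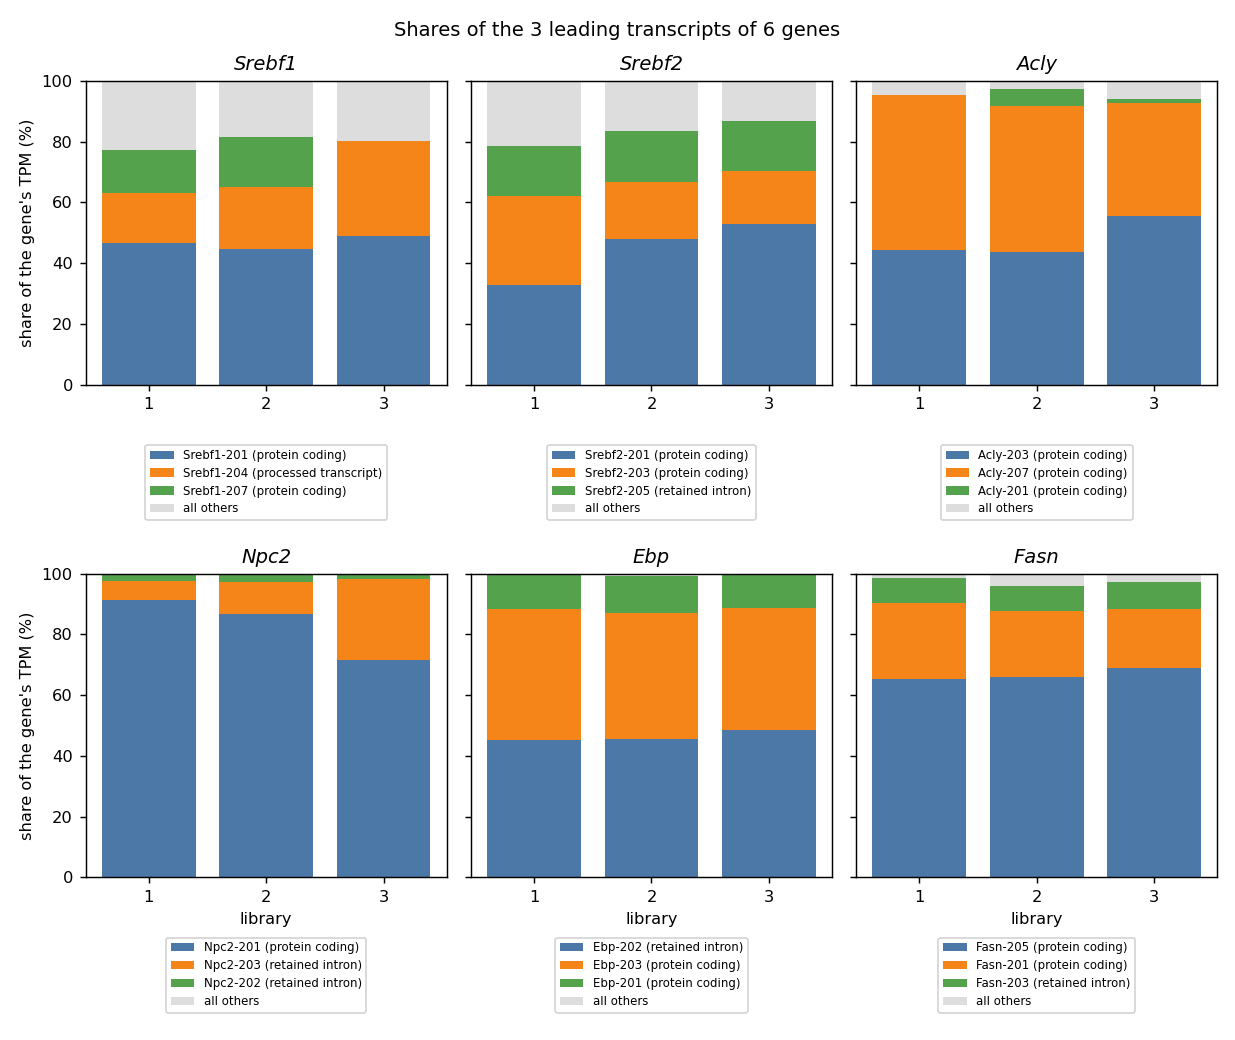
Share of the gene's TPM (percent) held by the 3 leading transcripts of Srebf1, Srebf2, Acly, Npc2, Ebp and Fasn in each library, as stacked bars with all other transcripts in grey. Npc2-203 grows from 6.28% in library 1 to 26.5% in library 3, Srebf1-207 is listed at 0 in library 3, and the shares of Ebp and Fasn are similar in all libraries.

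In other genes the coding product is shared between transcripts. Hmgcs1-201 (62.9, 60.3 and 77.4%) and Hmgcs1-202 (25.5, 26.8 and 11.5%) both carry 1560 coding bases, Sc5d-202 and Sc5d-201 both carry 897, and Soat1-201 and Soat1-207 both carry 1620. Their differing shares therefore leave the coding length unchanged. In Acaca the full-length Acaca-201 and Acaca-202 both carry 7035 coding bases. Acaca-201 held 25.8, 38.7 and 50.1% of TPM and Acaca-202 10.4, 0 and 0%. The short Acaca-203 with 936 coding bases held 38.6, 46.8 and 40.5%. By estimated reads Acaca-201 held 71.7% on average and Acaca-202 7.65%. Their estimated reads, not scaled for depth, were 243, 380 and 350 for Acaca-201 and 103, 0 and 0 for Acaca-202. Shares of short models rest on few reads, 40.8, 51.6 and 31.7 for Acaca-203.

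Of 40 further genes of these pathways, 32 reached at least 1 TPM in each library, 36 were tested and 27 differed between libraries, 13 higher and 14 lower in library 3. Of all tested genes 63.9% differed, 29.7% higher and 34.1% lower in library 3, and 74.9% differed where the mean count reached 50. In the isoprenoid and sterol list, Lbr, a lamin B receptor that is also a sterol C14 reductase, stood at 305 ± 17.1 TPM (SD), Ggps1, which makes the geranylgeranyl donor, at 84.9 ± 6.64, and Acat1, the mitochondrial thiolase, at 69.1 ± 1.93. Lbr was thus far above Tm7sf2, the other C14 reductase, at 12.5 ± 4.51 TPM. In the fatty acid list, Tecr, the last step of the elongation cycle, stood at 430 ± 22.9 TPM, the elongase Elovl5 at 166 ± 19.3, and the dehydratase Hacd3 at 146 ± 48.1. Hacd3 was lower in library 3, at 193.8, 145.3 and 97.6 TPM.

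Of the regulators in the third list, Nr1h2 encodes LXR beta, a nuclear receptor for oxysterols. It gave 131.0, 127.7 and 63.5 TPM and was lower in library 3 (log2 -1.06, adjusted p = 5.65e-124). Its local GC was 66.5%, and its log2 of library 3 was -0.998 with the local GC trend removed. Mbtps1, the first protease that cleaves SREBP, gave 102 ± 4.71 TPM and Lpcat3, a phospholipid remodelling enzyme, 53.3 ± 6.94. Of the transport genes, Gramd1a, a sterol carrier at membrane contacts, gave 243.6, 241.2 and 104.9 TPM, with a local GC of 74.0%. Its log2 of library 3 was -1.40, and -0.51 with the local GC trend removed. Lipa, the lysosomal cholesterol ester hydrolase, gave 88.6 ± 14.7 TPM and Gramd1b 72.7 ± 1.65. The genes under 1 TPM in every library were Acacb, Me1, Elovl7, Fads2, Ch25h and Cyp7b1. Ch25h and Cyp7b1, which make and break down oxysterols, had no count in any library, and 3 counts would correspond to at most 0.187 TPM for Ch25h and 0.118 TPM for Cyp7b1.

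Exons of 11 members overlap those of another annotated gene, and in 5 of them that gene's mean count reached 100. The sources used here do not say whether the counting used strand. Fdft1 shares 18.3% of its exon bases with Ctsb on the opposite strand, whose mean count of 12490 compares with 978 for Fdft1. Cyp51 overlaps Akap9 by 3.8%, Npc1 overlaps Rmc1 by 4.5% and Srebf1 overlaps Rai1 by 1.9%, all on opposite strands, so some reads of these genes could not be told apart if strand was not used.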

How the data were processed

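PolyA RNA of 1 mouse was sequenced in 3 technical-replicate libraries, after shearing on a Covaris instrument per the labels. The authors deposited, for GENCODE M21 on mm10, gene and transcript tables of expected counts, TPM and FPKM, with posterior SD scores of the counts and each transcript's percent of its gene's TPM, per the file headers. A second deposited gene table holds whole-number counts for GENCODE M4. The sources used here do not name the aligner or counter. Rows of tRNA, spike-ins and phiX (0.231 to 0.291% of counts) were left out. Depth was 20942875, 18402479 and 17494966 expected counts on annotated genes and 5056487 to 6339932 M4 counts.

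Expected counts were rounded. Where the mean reached 10, counts were compared with Poisson sampling by Pearson's chi-square test (2 degrees of freedom, libraries scaled by TMM in edgeR 4.0.16, Benjamini-Hochberg over all tested genes, threshold 0.05, scipy 1.17.1). The edgeR quasi-likelihood test needs a contrast, which 1 group does not give. The test was checked on simulated data. Reads have no molecular identifiers, so the test and counting errors cover counting only. The log2 deviation of a library compares its scaled count with the mean of the others, with 0.5 added to each. Local GC was chosen by earlier work on these libraries for its relation to library 3, and its lowess trend (fraction 0.3) was fitted where the mean count reached 100. A count of 3 was the floor for genes at 0. Members and lists were chosen with earlier results of these data known. All members are named, with the 3 highest other pathway genes of each list and those under 1 TPM in every library. Alternatives were DESeq2 1.42.0 size factors, total counts, count filters, M4 counts, removal of the GC trend, other pseudocounts, limits and units, and leaving out each library.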

Additional observations from a re-analysis of the deposited data

How the results depend on the processing

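The count of members that differed was 30 or more of 34 under DESeq2 size factors, total counts and either filter, 29 with the GC trend removed, 25 of 33 tested in the M4 counts, and 17 to 27 with 1 library left out, the lowest without library 3. For other pathway genes that range was 10 to 25 beside 27, and for all genes 4489 to 8029 beside 9501, with 6222 in the M4 counts. The log2 of library 3 changed sign with library 1 or 2 left out for Mvk (-0.316 to 0.085), Mvd (-0.070 to 0.109), Acly (-0.060 to 0.129), Acaca (-0.225 to 0.069), Soat1 (-0.094 to 0.046) and Abcg1 (-0.186 to 0.080). It also changed sign for Soat1 (0.060) and Abcg1 (0.027) with total counts, and for Srebf2 (0.438), Abcg1 (0.549) and Npc1 (0.042) with the GC trend removed. The cause was not tested. Without library 3 no deviation of library 3 exists. The median deviation of library 2 ranged from -0.152 without library 1 to 0.071 without library 3. Medians in FPKM were 22.5 for all members, 20.2 for mevalonate steps, 21 for squalene to cholesterol, 23.96 for SREBP control, 17.1 for storage and transport and 26.8 for fatty acid synthesis. Without mitochondrial genes the median over all members was 36.1 TPM. The leading transcript's median share was 80.9% by estimated reads. Depth-scaled counts, which ignore gene length, reversed Msmo1 over Cyp51 (-0.105 in M21, -0.411 in M4) and Soat1 over Abcg1 (-0.031 and -0.204), and M4 counts reversed Fdps over Fdft1 (-0.496). M4 counts were between 0.811% (Idi1) and 77.4% (Scap) of the M21 counts, and for abundant genes they were nearly equal in all libraries: Cd3e had 1257, 1262 and 1253 M4 counts beside 23591, 22104 and 24908 M21 counts. The M4 alternative may understate differences of such genes. No paired analysis was possible because the libraries form 1 group.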
